A study of Mus musculus with 9 samples.

Results

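The calpain genes measured here were Capn1, Capn2, Capn5, Capn7, Capn10, Capn11 and Capn15, together with Capns1, the gene of the small regulatory subunit, and Cast, the gene of calpastatin, the inhibitor of the classical calpains. These 9 genes of 37816 in the count table were chosen by symbol, and, since its difference between 84Q+IGF-1 and 84Q in these libraries was known at that time, Capn11 is taken as chosen on its measured values. The values of Capn11 are therefore given as a description, without a test, and the other 8 members were tested across all genes.

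RNA from the cerebellum of 9 mice on the C57BL/6 background was sequenced, with 3 mice in each of the groups 15Q, 84Q and 84Q+IGF-1. The transgene of all mice was human ATXN3 on a yeast artificial chromosome, so no group was free of it. The CAG tract of the transgene held 15 repeats in the 15Q control group and 84 repeats in both other groups. The 84Q+IGF-1 mice received 50 mg/kg IGF-1 by weekly intraperitoneal injection from 9 months of age, and all mice were harvested at 18 months. The methods of the study give PBS injections for the other mice, whereas the labels call them untreated. Each library has an ID of its own in the labels, and p-values measure the spread between the 3 libraries of a group.

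Calpains are cysteine proteases that calcium activates and that cut their substrates at a limited number of places. The classical enzymes, μ-calpain and m-calpain, each pair a large catalytic subunit (Capn1 or Capn2) with the small subunit encoded by Capns1, and calpastatin binds and inhibits the assembled enzyme. Ataxin-3, the protein expanded in spinocerebellar ataxia type 3 (SCA3), is a known calpain substrate. RNA levels do not show enzyme activity, which is governed by calcium, autolysis and calpastatin.

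The catalytic cysteine stretch is shown because Capn11 had few reads and is a close relative of Capn1 and Capn2, whose transcripts were far more abundant. Each sequence holds 63 bases of the coding strand, read from the longest open reading frame of the GENCODE vM21 transcripts (GRCm38), with the codon of the catalytic cysteine in capitals.
Capn1: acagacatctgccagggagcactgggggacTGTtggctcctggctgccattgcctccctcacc
Capn2: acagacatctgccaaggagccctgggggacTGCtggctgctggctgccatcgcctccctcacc
Capn11: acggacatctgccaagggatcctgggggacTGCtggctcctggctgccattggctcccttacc
Capn5: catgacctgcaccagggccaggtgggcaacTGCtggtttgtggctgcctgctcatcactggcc
Capn10: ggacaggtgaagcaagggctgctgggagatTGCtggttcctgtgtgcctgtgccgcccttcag
Capn15: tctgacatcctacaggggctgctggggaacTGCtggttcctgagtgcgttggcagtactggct
The codon stood at position 115 of the reading frame of Capn1 and of Capn11, at 105 in Capn2, 81 in Capn5, 73 in Capn10 and 628 in Capn15, counted from the start codon. Over this window Capn11 had the same base as Capn1 at 85.71% of positions and the same base as Capn2 at 87.3%, against 92.06% between Capn1 and Capn2. The more distant members stood apart, with 57.14% for Capn1 against Capn10 and 61.9% for Capn1 against Capn15. The stretch was not found by the same search in Capn7, an atypical calpain, nor in Capns1 and Cast, which encode no protease. Despite the likeness of this window, none of the 2736 words of 31 bases in the Capn11 transcripts occurred in another gene of the annotation, so a read of that length without errors was specific to Capn11.

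In depth, the libraries held between 17482654 and 58269196 counts on genes, and a count of 3, used as the floor for a level, corresponded to 0.0513 to 0.171 CPM. CPM are counts scaled to a library total that TMM factors had corrected for composition. The chi-square per gene between replicates of a group was 9.58 to 16.05, above the 1 that counting error gives, so each library was kept as a sample. Markers of the labelled tissue were high in every library, with a summed level of 4436 to 5278 CPM for 6 granule cell genes such as Cbln3 and Zic1, and of 2603 to 3220 CPM for 6 Purkinje cell genes such as Car8 and Calb1. All 6 Purkinje cell genes had a log2 fold change above 0 against 15Q, the median being 0.24 for 84Q and 0.27 for 84Q+IGF-1. In each of these comparisons 3 of the 6 had an unadjusted edgeR p under 0.05, beside 19.4% and 17.7% of all tested genes, and 0 were called, beside 2.14% and 2.25%. The groups differed in other markers too. Xist, transcribed from the inactive X chromosome of females, lay between 719 and 949 CPM in 4 libraries (replicates 2 and 3 of 15Q, replicate 1 of 84Q, replicate 2 of 84Q+IGF-1) and between 0.285 and 1.15 CPM in the other 5. The summed level of 6 choroid plexus genes such as Ttr was 451 to 985 CPM in replicates 1 and 3 of 15Q and in replicate 2 of 84Q, and 25.1 to 63.1 CPM in the remaining libraries. Intestinal, epidermal and skeletal muscle markers were highest in the 15Q group. The 8 intestinal genes summed to 24.3 to 38.2 CPM there and to 5.003 to 6.51 CPM in the 6 libraries with 84 repeats. The 6 epidermal genes summed to 15.4 to 26.8 CPM against 6.92 to 8.38 CPM, and the 6 skeletal muscle genes to 12.01 to 18.7 CPM against 1.01 to 2.48 CPM. All markers of these 3 tissues were in the count table and each had a count in some 15Q library, while Fabp2 of the intestinal genes and Dsg1a of the epidermal genes were at 0 in all 6 others. The summed level of 6 meningeal genes was 99.9 to 145 CPM in 15Q and 57.4 to 84.6 CPM in the other 6 libraries. The 6 microglial genes summed to 108 to 133 CPM in 84Q, above the 94.7 to 105.7 CPM of 15Q and the 99.7 to 105.7 CPM of 84Q+IGF-1. The 6 oligodendrocyte genes summed to 3934 to 4949 CPM in 84Q and 3005 to 3948 CPM in 84Q+IGF-1, and all 6 had a log2 fold change below 0 between these groups, 5 of them at an unadjusted edgeR p under 0.05 (4.68% of all tested genes) and 0 called (0%). The part of these differences in the results below was not tested, and in bulk tissue fewer cells of a type and less RNA per cell cannot be told apart.

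To compare the genes with each other, levels were divided by the exon length of each gene and expressed as TPM, which sum to the same total in every library. Capns1 was the most abundant member with a mean of 173 TPM (SD 12.4, n = 9 libraries), above 95.6% of the tested genes. Capn15, a large calpain with zinc fingers, followed with 102 TPM (SD 9.70), and Capn2 with 66.7 TPM (SD 3.51). Capn7 had 54.0 TPM (SD 3.86), Capn5 31.9 TPM (SD 1.66) and Capn1 31.4 TPM (SD 1.42). Capn10 had 19.3 TPM (SD 1.59), Cast 7.59 TPM (SD 0.775) and Capn11 2.54 TPM (SD 2.70). Each of Capns1, Capn15, Capn2, Capn7, Capn1 and Capn10 lay above the next gene of this order in 9 of 9 libraries. Capn5 exceeded Capn1 in 6 of 9, and by this length the levels of that pair did not differ beyond their spread. Cast exceeded Capn11 in 8 of 9 libraries. With the length of the longest transcript in place of all exons, Capn2 (104 TPM) stood above Capn15 (89.5 TPM), and Cast had 13.5 TPM. The order of these 2 calpains thus depended on the length used. By the longest transcript Capn5 (mean 30.9 TPM) also lay above Capn1 (27.2 TPM) in every library. Cast (11.4 TPM or more) then lay above Capn11 (up to 7.17 TPM) in every library.

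**Figure D1:**
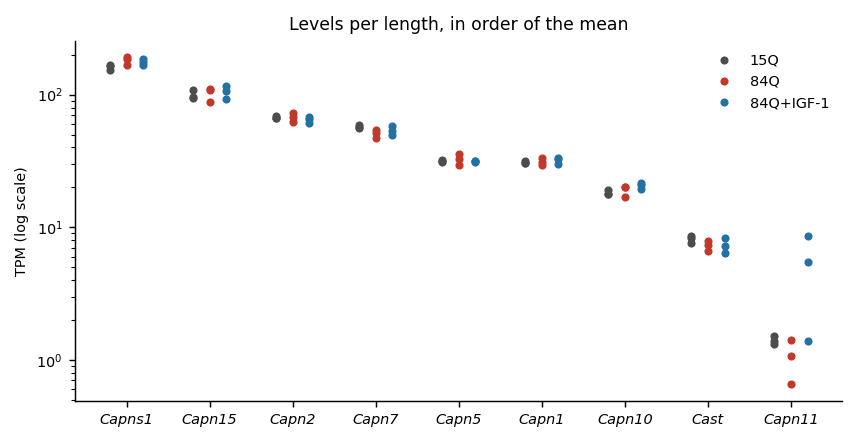
TPM of each gene (logarithmic axis) in 9 libraries, ordered by the mean; each point is 1 library, coloured by group. Means fall from 173 TPM for Capns1 to 2.54 TPM for Capn11, and only Capn11 has libraries of 1 group several-fold apart.

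The classical calpain system came first. Capn1, the catalytic subunit of μ-calpain, had 25.5, 26.1 and 24.9 CPM in 15Q, 28.1, 26.5 and 25.3 CPM in 84Q, and 28.7, 27.3 and 24.6 CPM in 84Q+IGF-1. The 3 groups overlapped, with log2 fold changes of 0.07 (SE 0.079) for 84Q against 15Q, 0.07 (SE 0.079) for 84Q+IGF-1 against 15Q and 0.01 (SE 0.080) for 84Q+IGF-1 against 84Q. Capn2, the catalytic subunit of m-calpain, had 105, 105 and 107 CPM in 15Q, 117, 109 and 102 CPM in 84Q, and 108, 108 and 95.4 CPM in 84Q+IGF-1. Its groups overlapped as well, and its 3 log2 fold changes were 0.05 (SE 0.064), -0.03 (SE 0.064) and -0.08 (SE 0.064) in the same order.

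Capns1, whose product is the partner of both catalytic subunits, had 93.9, 102 and 102 CPM in 15Q, 121, 105 and 118 CPM in 84Q, and 118, 110 and 102 CPM in 84Q+IGF-1. The highest 15Q library, at 101.65 CPM, lay below the lowest of the 6 libraries with 84 repeats, at 102.46 CPM, a narrow gap. In TPM the groups overlapped, with 15Q reaching 168.4 TPM and the 6 other libraries starting at 166.7 TPM. The log2 fold change of Capns1 was 0.21 (SE 0.068, edgeR unadjusted p = 0.010, adjusted p = 0.133) for 84Q against 15Q and 0.15 (SE 0.068, adjusted p = 0.276) for 84Q+IGF-1 against 15Q. Neither change was called. In the separate edgeR fit of all 6 libraries with 84 repeats against 15Q the log2 fold change was 0.18 (SE 0.059, adjusted p = 0.0966), below the 1.5-fold threshold. With each library left out in turn this log2 fold change stayed between 0.15 and 0.20, while its adjusted p ran from 0.0598 to 0.242 and was over 0.1 in 7 of 9 fits. The adjusted p was 0.111 with Xist as a covariate. DESeq2 gave Capns1 an adjusted p of 0.0544 in this comparison and 0.0913 in 84Q against 15Q, also with a fold under the threshold. The 3 libraries of 15Q in which Capns1 was lowest in CPM were those with the highest intestinal, epidermal, muscle and meningeal sums given above.

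Cast, the inhibitor, had 21.8, 24.7 and 23.3 CPM in 15Q, 23.0, 21.4 and 19.6 CPM in 84Q, and 18.9, 20.5 and 23.3 CPM in 84Q+IGF-1. The groups overlapped, and the log2 fold changes were -0.12 (SE 0.097, edgeR adjusted p = 0.538) for 84Q against 15Q, -0.15 (SE 0.096, adjusted p = 0.430) for 84Q+IGF-1 compared with 15Q and -0.03 (SE 0.098, adjusted p = 0.993) for 84Q+IGF-1 against 84Q. The interval of the middle comparison, from -0.36 to 0.06, was the one that reached lowest among the tested members.

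Ratios within a library, which do not depend on the scaling of its total, were described for the same genes. The ratio of Capn2 to Capn1 in CPM was 4.01 to 4.30 in 15Q, 4.03 to 4.18 in 84Q and 3.76 to 3.96 in 84Q+IGF-1. The 3 libraries with IGF-1 thus lay below the other 6, by a narrow gap of 3.96 against 4.01. This gap was not tested, and how often ratios of other genes separate in this way was not counted. On the log2 scale the group means were 2.05 (SD 0.050, n = 3), 2.04 (SD 0.025) and 1.95 (SD 0.038). Per length the mean of Capn2 to Capn1 over the 9 libraries was 2.13 in place of 4.04. The sum of Capn1 and Capn2 over Cast was 5.30 to 6.01 in 15Q, 6.31 to 6.50 in 84Q and 5.15 to 7.22 in 84Q+IGF-1. The 84Q libraries lay above those of 15Q in this ratio, and the 84Q+IGF-1 libraries spanned both groups. Per length the mean of this ratio over the 9 libraries was 13.0 in place of 6.12, since the exons annotated for Cast add up to 11470 bases. Capns1 over the sum of Capn1 and Capn2 was 0.717 to 0.778 in 15Q, 0.776 to 0.923 in 84Q and 0.812 to 0.863 in 84Q+IGF-1, all in CPM, and the ranges of 15Q and 84Q overlapped at their ends.

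**Figure D2:**
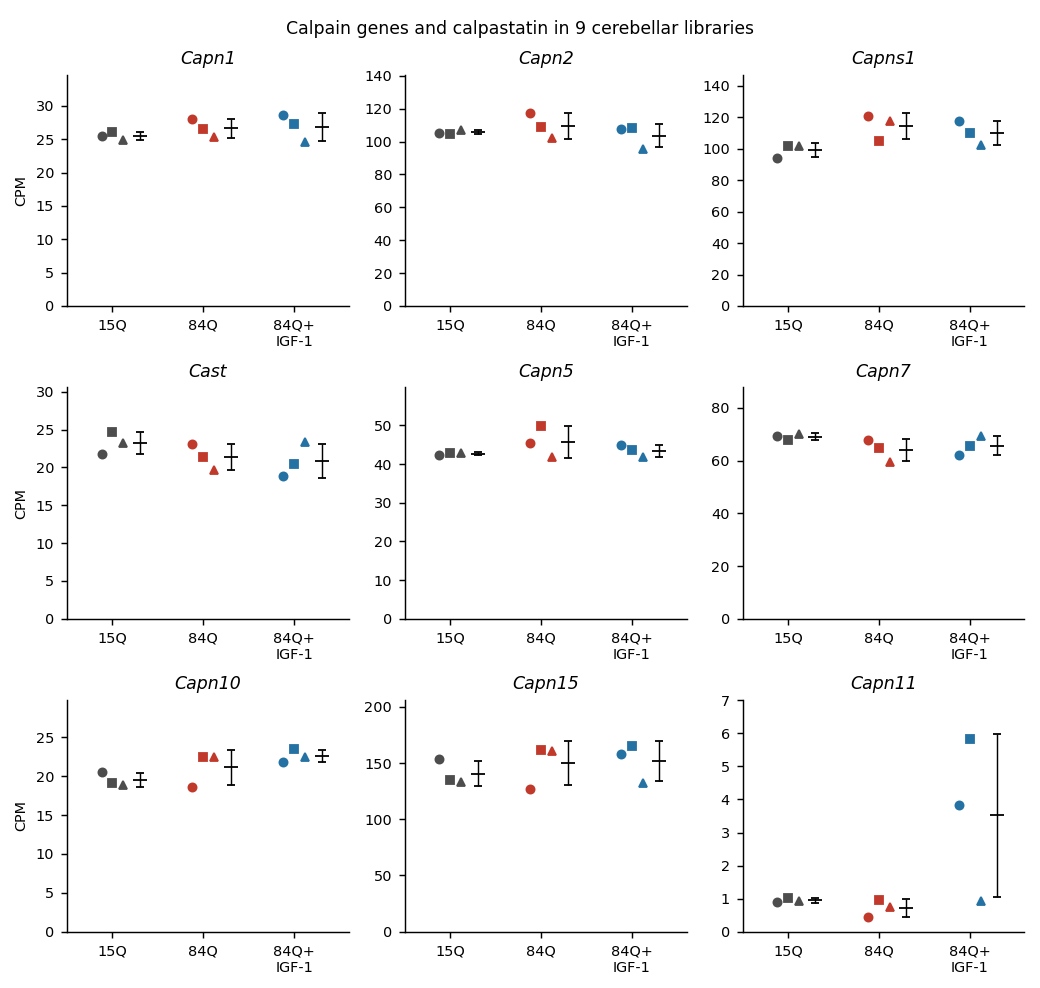
CPM of each gene in the 3 groups; circles, squares and triangles are replicates 1, 2 and 3, and the bar beside them is the mean with its SD (n = 3), on axes that start at 0. Capns1 is at most 101.65 CPM in 15Q and at least 102.46 CPM in the other groups, and Capn11 reaches 3.82 and 5.84 CPM in 2 libraries of 84Q+IGF-1.

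Among the non-classical calpains, Capn10, studied for its genetic link to type 2 diabetes, had 20.6, 19.2 and 18.9 CPM in 15Q, 18.6, 22.5 and 22.5 CPM in 84Q, and 21.9, 23.5 and 22.4 CPM in 84Q+IGF-1. The 84Q+IGF-1 libraries lay above those of 15Q, and the 84Q libraries overlapped both. The log2 fold change for 84Q+IGF-1 against 15Q was 0.21 (SE 0.088), with an unadjusted p of 0.036 and an adjusted p of 0.246 in edgeR, and was not called. Capn7, which carries microtubule-interacting and transport domains, had 69.4, 67.7 and 70.1 CPM in 15Q, 67.65, 64.6 and 59.6 CPM in 84Q, and 62.2, 65.5 and 69.4 CPM in 84Q+IGF-1. The highest 84Q library, at 67.65 CPM, lay just under the lowest of 15Q, at 67.66 CPM, and the log2 fold change was -0.11 (SE 0.060, edgeR adjusted p = 0.341). Capn5, a calpain without a calmodulin-like domain, ranged from 42.2 to 43.0 CPM in 15Q, 41.8 to 49.8 CPM in 84Q and 41.8 to 45.0 CPM in 84Q+IGF-1. Capn15, the mammalian relative of the fly gene small optic lobes, ranged from 133 to 153 CPM in 15Q, 127 to 162 CPM in 84Q and 132 to 165 CPM in 84Q+IGF-1. For both genes the 3 groups overlapped, and the log2 fold change farthest from 0 in the 4 comparisons was 0.11 (SE 0.10, edgeR adjusted p = 0.607), for Capn15 in 84Q+IGF-1 against 15Q.

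Whether these 8 members differed between the groups was asked in 3 comparisons of 1 edgeR fit and in the separate fit of both 84Q groups against 15Q. Calls required a change of 1.5-fold or more together with an adjusted p below 0.1. Of the 8 members, 0 were called in 84Q against 15Q, where 2.14% of the 19353 tested genes were called, and 0 in 84Q+IGF-1 against 15Q, where 2.25% were called. For 84Q+IGF-1 against 84Q, 0 of 8 were called beside 0% of all genes, and for both 84Q groups against 15Q, 0 of 8 beside 3.47%. DESeq2 also called 0 of the 8 members in each comparison, beside 521 of 23864, 588 of 23864, 6 of 37794 and 846 of 25312 genes with an adjusted p in turn. At an unadjusted p under 0.05 edgeR gave 1, 2, 0 and 1 members in these 4 comparisons in turn, which were Capns1 each time and Capn10 in the second, and DESeq2 gave 1, 2, 0 and 2. Over all tested genes the percentages at this p were 19.4%, 17.7%, 4.68% and 22.7%. The 3 comparisons with 15Q share its libraries, and that of both 84Q groups reuses all libraries of the other 2. The median log2 fold change of the 8 members was 0.08, 0.05, -0.01 and 0.07 in the 4 comparisons, beside medians between -0.0051 and -0.0019 over all tested genes. The 95% intervals of all 32 member comparisons lay between -0.36 and 0.40 on the log2 scale, inside the 0.58 that corresponds to 1.5-fold.

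**Figure D3:**
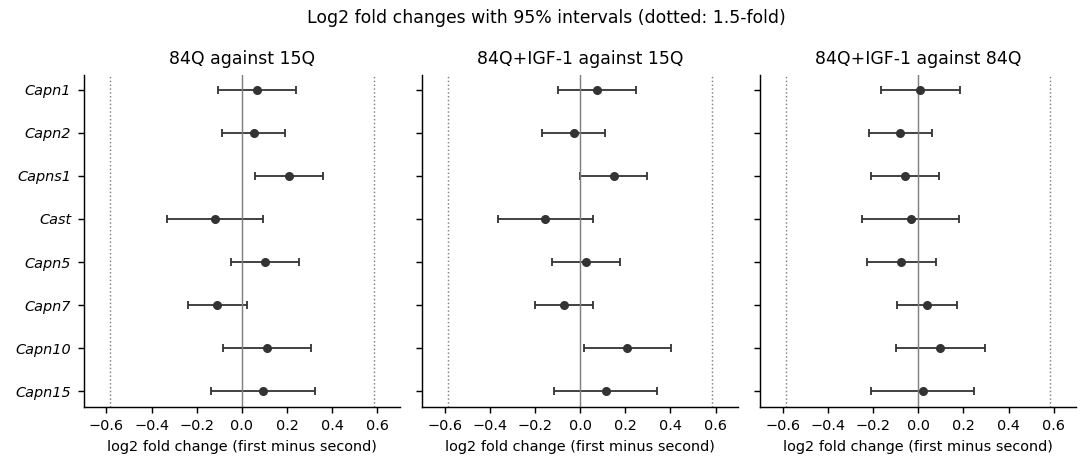
Log2 fold changes of the 8 tested members (points) with 95% intervals (bars) in the 3 comparisons of the edgeR fit to 9 libraries, with dotted lines at 1.5-fold. Every interval ends inside the dotted lines, and those of Capns1 for 84Q against 15Q (0.06 to 0.36) and for 84Q+IGF-1 against 15Q and of Capn10 for 84Q+IGF-1 against 15Q (0.02 to 0.40) leave out 0 before adjustment.

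Capn11, a calpain best known from testis, gave 24, 41 and 54 counts in the 15Q libraries, 13, 22 and 13 in 84Q and 89, 155 and 27 in 84Q+IGF-1. As CPM these were 0.892, 1.02 and 0.924 in 15Q, 0.448, 0.967 and 0.741 in 84Q, and 3.82, 5.84 and 0.925 in 84Q+IGF-1. Replicates 1 and 2 of 84Q+IGF-1 were high, and replicate 3 of that group lay within the range of the 15Q libraries, so that the group overlapped both others. Replicates 1 and 2 had 3.75 and 5.73 times the CPM of the highest of the other 7 libraries, and replicate 2 had 1.53 times that of replicate 1. The CPM of replicate 3 was 0.977 times that of the pooled 15Q libraries, and the pooled 84Q libraries had 0.732 times the pooled 15Q level.

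The fitted log2 fold change of Capn11 was 2.31 (SE 0.55) for 84Q+IGF-1 against 84Q, 1.89 (SE 0.49) for 84Q+IGF-1 against 15Q and -0.42 (SE 0.58) for 84Q against 15Q, the first being the difference on which the gene is taken to have been chosen. It was 1.72 when 84Q+IGF-1 replicate 2 was left out and 2.77 when 84Q+IGF-1 replicate 3 was. The SD of Capn11 within groups was 0.83 on the log2 CPM scale, larger than that of 98.0% of the tested genes, whereas the SDs of the other 8 members were between 0.07 and 0.16. Of the 2 libraries with high Capn11, 1 had a high and 1 a low level of Xist, and both had choroid plexus sums at the low end, at 26.3 and 26.8 CPM. Their oligodendrocyte sums, 3005 and 3722 CPM, were the lowest of all libraries, the next being 3934 CPM in 84Q replicate 3. A link of these sums to Capn11 was not tested. The 6 of 8 markers of male germ cells with a row in the count table summed to 0.729, 1.13 and 1.06 CPM in the 84Q+IGF-1 libraries, within the 0.513 to 1.37 CPM of the other libraries, and Prm2 was at 0 in all 6 libraries with 84 repeats.

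Capn11 (ENSMUSG00000058626.16) lies on chromosome 17 of GRCm38, from 45630204 to 45659325 on the minus strand. The gene Tmem63b lies on the same strand 846 bases upstream and had 107 to 127 CPM over the 9 libraries, with 120, 115 and 107 CPM in 84Q+IGF-1. On the other side the nearest protein-coding gene, Mymx, had no row in the count table. Slc29a1, the next gene beyond Mymx, had 41.2 to 48.6 CPM, with 48.6, 43.8 and 43.8 CPM in 84Q+IGF-1. Neither Tmem63b nor Slc29a1 was high in replicates 1 and 2 alone. No other annotated gene overlapped Capn11.

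**Figure D4:**
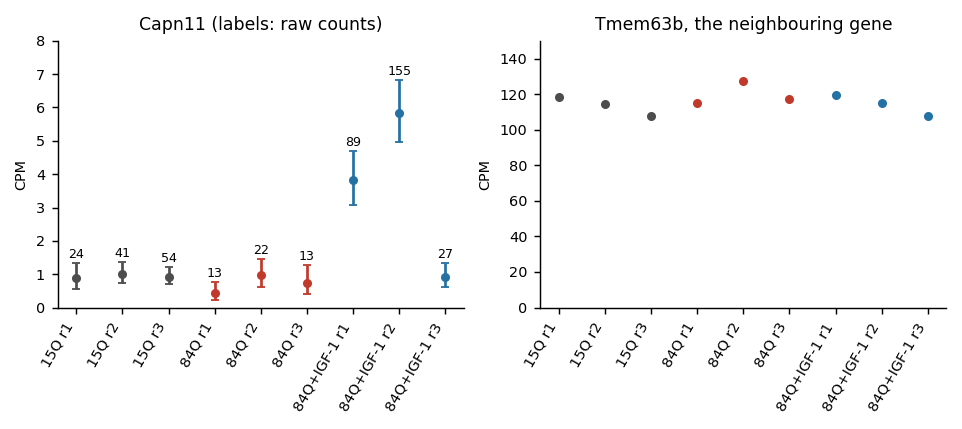
Left, Capn11 in CPM for each library, with 95% counting intervals as bars and the raw count above each point; right, CPM of the upstream gene Tmem63b in the same libraries. Capn11 is at 3.82 and 5.84 CPM in 84Q+IGF-1 replicates 1 and 2 and at most 1.02 CPM elsewhere, while Tmem63b stays between 107 and 127 CPM.

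The genes whose pattern was most like Capn11, by the root mean square difference in gene-centred log2 CPM over the 9 libraries, were Gm49694 (0.676), Gm7049 (0.726), Gm43789 (0.745), Gm3227 (0.753) and Gm14393 (0.753). A gene with no variation at all would have had 1.06, so the likeness was weak. Gm49694 had 0.815, 0.602 and 0.480 CPM in 84Q+IGF-1 and 0.207 to 0.396 CPM in the other libraries, a smaller contrast than that of Capn11.

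The remaining calpain genes were sparse in the cerebellum. Capn12, the most abundant of them, had 1.34, 1.49 and 1.54 CPM in 15Q, 2.10, 2.46 and 1.25 CPM in 84Q, and 2.36, 1.84 and 1.54 CPM in 84Q+IGF-1, with a log2 fold change of 0.42 (SE 0.25, edgeR adjusted p = 0.377) for 84Q against 15Q. Capn6, which lacks the catalytic cysteine, ranged from 0.489 to 2.02 CPM, and Capn3, the muscle calpain, from 0.483 to 0.791 CPM. Of these 3 tested genes, 0 were called in the 4 comparisons, where 2.14%, 2.25%, 0% and 3.47% of all tested genes were. Capn8 had 0 to 3 counts per library, Capn9 1 to 14 and Capn13 0 to 2, and these were below the filter on low counts and were not tested. Capn3 and Ganc share exon sequence on the same strand, and reads on 7.7% of the Capn3 exons could belong to either. Actn4, on the opposite strand, covers 6.6% of the Capn12 exons and had 3021 to 10788 counts per library, against 22 to 90 for Capn12. The strand setting of the counting is not given, and the part of Actn4 in the level of Capn12 was not tested.

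Capns2, a close relative of the small subunit gene, had 3, 9 and 16 counts in the 15Q libraries, 0, 1 and 1 in 84Q and 1, 0 and 1 in 84Q+IGF-1. All 15Q libraries lay above the 6 others, and the pooled 15Q level was 8.26 times that of the pooled 6 libraries (95% counting interval 2.89 to 32.4, from 28 and 4 counts), without a test because the gene was below the filter. In the libraries at 0 a count of 3 would have corresponded to 0.103 and 0.113 CPM. The intestinal, epidermal and skeletal muscle sums were highest in the same 3 libraries as Capns2, and their part in its level was not tested.

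**Figure D5:**
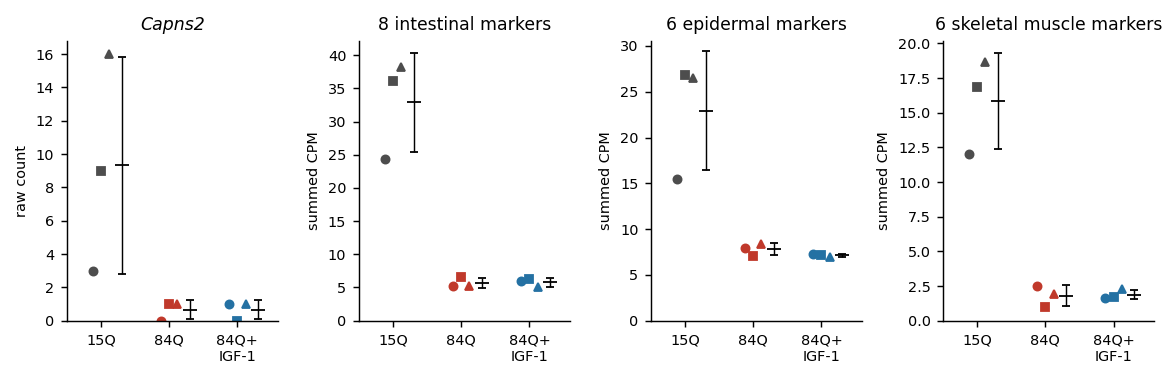
Raw counts of Capns2 and summed CPM of intestinal, epidermal and skeletal muscle marker genes; circles, squares and triangles are replicates 1, 2 and 3, and the bar is the mean with its SD (n = 3). All 4 panels have the 3 libraries of 15Q above the other 6, with 3 to 16 counts of Capns2 against at most 1.

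The genes of proteins that calpains are known to cut were followed as a list of 32, all of which were tested. None was called in the 4 comparisons, beside the shares of all genes given above, and 4, 4, 0 and 7 had an unadjusted p under 0.05 in the order in which the comparisons were given for the members, where 19.4%, 17.7%, 4.68% and 22.7% of all tested genes had one. The median log2 fold change of the list was -0.05, -0.04, 0.04 and -0.04. Itpr1, the inositol trisphosphate receptor of Purkinje cells, was the most abundant with a mean of 3481 CPM, and its log2 fold change was -0.16 (SE 0.11, edgeR adjusted p = 0.467) for 84Q against 15Q. Sptan1, αII-spectrin, whose breakdown products are used as a readout of calpain activity, had a mean of 1827 CPM and a log2 fold change of -0.10 (SE 0.063, adjusted p = 0.422). Dnm1, a dynamin of synaptic vesicle recycling, had a mean of 1421 CPM and a log2 fold change of 0.03 (SE 0.058, adjusted p = 0.837). Mouse Atxn3, the ortholog of the transgene and named outside the rule, had 28.0, 29.1 and 30.2 CPM in 15Q, 28.8, 25.1 and 27.2 CPM in 84Q, and 25.7, 28.4 and 26.9 CPM in 84Q+IGF-1, and its groups overlapped, with a log2 fold change of -0.11 (SE 0.077, edgeR adjusted p = 0.494) for 84Q against 15Q. Camk4, a calcium/calmodulin-dependent kinase named after its values were seen, had the smallest adjusted p of the list in both 84Q groups against 15Q. Its levels were 88.2, 108 and 177 CPM in 15Q, 91.6, 77.1 and 72.8 CPM in 84Q and 84.3, 98.6 and 82.0 CPM in 84Q+IGF-1, so that 15Q replicate 3 stood apart and the groups overlapped. The log2 fold change of Camk4 was -0.63 (SE 0.20, edgeR adjusted p = 0.126) for 84Q against 15Q and -0.56 (SE 0.16, adjusted p = 0.0690) for both 84Q groups against 15Q, the latter below 1.5-fold. Map2, a dendritic microtubule protein also named after its values were seen, had 508, 561 and 637 CPM in 15Q, 488, 464 and 407 CPM in 84Q and 404, 526 and 487 CPM in 84Q+IGF-1. Its 84Q libraries lay below those of 15Q and its 84Q+IGF-1 libraries overlapped them, and the log2 fold change was -0.33 (SE 0.11, edgeR adjusted p = 0.136) for 84Q against 15Q and -0.30 (SE 0.090, adjusted p = 0.0759) for both 84Q groups against 15Q, under 1.5-fold. Dpysl3, also named after its values were seen, had 23.5 to 23.8 CPM in 15Q and 10.4 to 22.6 CPM in both 84Q groups, without overlap. Its log2 fold change for both 84Q groups against 15Q was -0.47 (SE 0.17, edgeR adjusted p = 0.133).

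Caspases, the other cysteine proteases that cut ataxin-3, were followed as a list of 10 genes, of which 9 were tested and 0 were called in the 4 comparisons, where 2.14%, 2.25%, 0% and 3.47% of all tested genes were called. At an unadjusted p under 0.05 edgeR gave 1, 2, 0 and 1 of the 9 in the same order, beside 19.4%, 17.7%, 4.68% and 22.7% of all tested genes. The median log2 fold change of the list was -0.22, -0.23, -0.04 and -0.23 in this order. For 84Q against 15Q, 7 of the 9 were below 0, and the 2 above 0 were Casp9 and Casp2, named for their level. Casp9, the initiator of the mitochondrial pathway, had a mean of 29.4 CPM and a log2 fold change of 0.13 (SE 0.079, edgeR adjusted p = 0.409) for 84Q against 15Q. Casp2 had a mean of 21.3 CPM and a log2 fold change of 0.08 (SE 0.095, adjusted p = 0.678), and the 3 groups overlapped for both genes.

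Opposite-strand genes overlap exons of 7 of the 9 members, the exceptions being Capn5 and Capn11. The overlap was largest for Capn2, where Gm37885 covers 27.1% of the exon bases, followed by Capn15 at 19.3%, Capn10 at 14.7% and Capn1 at 11.8%. The library kit kept strand information, but the strand setting of the counting is not given in the sources used here, so the reads of a gene and its antisense partner cannot be told apart in these places. Gm37885 itself had 3 to 49 counts per library, against 1791 to 6251 for Capn2. Exons of Cast are crossed by Erap1 over 7.27% of their length, and those of Capn7 by Sh3bp5 over 2.37%. Erap1 had 190 to 775 counts per library, against 344 to 1361 for Cast. Sh3bp5 had 2193 to 6997 counts, more than the 1045 to 4101 of Capn7.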

How the data were processed

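The authors trimmed paired-end reads from strand-specific libraries with Trimmomatic 0.36, mapped them to GRCm38.p6 with HISAT2 2.2.0 and used featureCounts for the read counts of genes. The deposited values are raw counts, not normalized, and the annotation release and strand setting of the counting are not given in the sources used here. Symbols and exon lengths came from GENCODE vM21, matched by Ensembl gene ID for 37681 of 37816 genes.

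The members and gene lists were chosen with earlier results of these data known. Counts were tested with edgeR 4.0.16 in R 4.3.3: TMM scaling, filterByExpr (19353 genes kept), 1 quasi-likelihood model of the 9 libraries, with p-values adjusted by Benjamini-Hochberg over these genes. Calls followed the thresholds of the study, 1.5-fold or more with an adjusted p below 0.1. Both 84Q groups were compared with 15Q in a fit of their own, in which a positive log2 fold change means higher with 84 repeats. Tests are two-sided. The steps were tested on simulated data. Log2 CPM used a prior count of 2, and TPM the union of exons. Exact Poisson 95% intervals of counts, and a conditional binomial one for the ratio of Capns2, cover counting error only. Named genes were all members and the other calpain genes, in each pathway list those called and the 3 with the highest mean CPM, in each cell type list at most 2 with the highest mean CPM, and the 5 genes nearest to Capn11. Fabp2, Dsg1a and Prm2 were named for their zeros. Xist, Atxn3, Camk4, Map2, Dpysl3 and the neighbours of Capn11 were named besides. Stomach markers summed to 0.0377 to 0.176 CPM, with 0.171 to 0.176 CPM in 84Q and 0.0743 to 0.103 CPM in 15Q, and the astrocyte list to 2072 to 2637 CPM.

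The alternatives were DESeq2 1.42.0, its size factors within edgeR, no count filter, a p threshold of 0.05, no fold threshold, a replicate block, a covariate for Xist, only the 2 groups compared, each library left out in turn, the longest transcript as the length, and TPM in place of CPM for ratios. The protein measurements of the study were not analysed here. The values of 1 gene that the naming rule covers are not reported here.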

Additional observations from a re-analysis of the deposited data

How the results depend on the processing

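No alternative called any of the 8 members tested except 1: without a fold change threshold, 1 member (Capns1) was called in both 84Q groups against 15Q. Replicate numbers did not pair the samples: deviations from the group means correlated by -0.31 to 0.08 and 0 of 9 libraries correlated best with their own number. With the replicate block 0 members were called in every comparison, and 242 genes were called in 84Q against 15Q (414 without it), 271 in 84Q+IGF-1 against 15Q (435), and 487 in both 84Q groups against 15Q (672), where the adjusted p of Capns1 was 0.158 with the block and 0.0966 without it. Of 472 recomputed log2 fold changes of the 8 members, 13 had the other sign. With libraries left out in turn, the range for 84Q+IGF-1 against 84Q was -0.040 to 0.070 for Capn1, -0.088 to 0.112 for Capn15, -0.0084 to 0.081 for Capn7 and -0.119 to 0.034 for Cast, and Capn2 ran from -0.054 to 0.032 in 84Q+IGF-1 against 15Q and from -0.017 to 0.043 in both 84Q groups against 15Q. With Xist as a covariate Capn2 was at 0.0067 in 84Q+IGF-1 against 15Q. The log2 ratio of Capns1 to Capn1 and Capn2 was 0.82 in TPM and -0.30 in CPM, which follows from the shorter exons of Capns1. For 84Q against 15Q, the genes called numbered 243 at an adjusted p under 0.05, 928 without a fold threshold, 1025 without a filter, 274 with Xist and 184 to 551 with a library left out. For 84Q+IGF-1 against 15Q these were 281, 711, 1284, 321 and 226 to 629. For both 84Q groups against 15Q they were 446, 1944, 1235, 399 and 278 to 819. For 84Q+IGF-1 against 84Q, DESeq2 called 6, the fit without a filter 168 and those with a library left out 0 to 9. Except where fewer libraries or more genes were tested by construction, the cause was not tested.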
